A study of Homo sapiens with 11 samples.

Results

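The genes described are 10 components of the transforming growth factor beta (TGF-beta) pathway, namely 2 ligands (TGFB1 and TGFB2), 3 receptors (TGFBR1, TGFBR2 and TGFBR3), 2 receptor-regulated SMADs (SMAD2 and SMAD3) and 3 feedback regulators (SMAD7, SKIL and PMEPA1). They were taken by name from the 28395 genes counted in both cell lines, and all 10 were read in every library. The libraries came from PC3 and DU145 cells, both human prostate cancer cell lines, PC3 derived from a bone metastasis and DU145 from a brain metastasis. The study asked how overexpression of ST6GAL1, a sialyltransferase that adds sialic acid to the glycans of surface and secreted proteins, changed gene expression in these cells. Control cells of each line had been transduced with negative control lentiviral particles (Lenti-ORF control) and overexpressing cells with lentiviral particles for ST6GAL1, so that both groups carried a lentivirus. Cells were compared as stable populations, in which a change that arose once during selection is shared by all repeats of a group. RNA-Seq counts were analysed for 3 PC3 control, 3 PC3 overexpression, 3 DU145 control and 2 DU145 overexpression libraries, the last numbered replicates 2 and 3.

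TGF-beta ligands are secreted in a latent form and, once released, bring together the type II receptor TGFBR2 and the type I receptor TGFBR1, which phosphorylates SMAD2 and SMAD3. These then enter the nucleus with SMAD4 and switch target genes on or off, and among the targets are inhibitors of the pathway itself. In prostate epithelium the pathway is known to restrain growth, while in advanced prostate cancer it is known for its part in epithelial-mesenchymal transition and in the exchange of signals with bone.

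Total counts on genes were between 13194485 and 18201359 per library. ST6GAL1 was between 2.09 and 3.07 normalized CPM (counts scaled to library size) in the PC3 control libraries and between 31.8 and 33.4 with overexpression, and in DU145 between 11.3 and 14.2 in control libraries and 298.0 and 347.8 with overexpression. The identity of the lines was checked on CTNNA1, which PC3 cells are known to have lost. CTNNA1 was at most 1.59 CPM in the PC3 libraries and at least 551 CPM in the DU145 libraries. All 4 epithelial markers looked at (KRT8, KRT18, EPCAM and CDH1) were read in both lines, and their summed level was 511 to 532 CPM in PC3 control, 497 to 501 CPM in PC3 overexpression, 1046 to 1086 CPM in DU145 control and 884 to 954 CPM in DU145 overexpression libraries. The markers did not move together. Mean CDH1 rose with overexpression, from 9.18 to 23.75 CPM in PC3 and from 100.9 to 120.6 CPM in DU145. Mean KRT8 fell from 298.8 to 257.6 CPM in PC3 and from 561.3 to 466.2 CPM in DU145. EPCAM was higher in PC3 and lower in DU145, and KRT18 overlapped in PC3 and was lower in DU145. The leukocyte markers CD3E and MS4A1 had no count in any library, and the summed leukocyte level of at most 59.5 CPM came from CD68 nearly alone. The summed levels of 4 fibroblast and 3 endothelial markers were at most 35.9 and 7.45 CPM. Of the fibroblast markers the collagens were read in PC3 and moved in opposite directions, COL1A1 from 24.6 to 26.96 CPM in control to 18.1 to 18.8 CPM in overexpression libraries, and COL3A1 from 3.74 to 3.99 CPM to 12.6 to 16.9 CPM. The part of these shifts in the results below was not tested.

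ST6GAL1 overexpression went with changes in 5 of the 10 genes in each line, and only TGFB2, TGFBR2 and PMEPA1 were among the 5 in both. In PC3 cells TGFB2, TGFBR1, TGFBR2 and SMAD3 were lower and PMEPA1 was higher, and in DU145 cells TGFB2, TGFBR2, SMAD7, SKIL and PMEPA1 were higher and none was lower. All of these had a Benjamini-Hochberg adjusted p under 0.05 in edgeR's quasi-likelihood test, which 37.3% of the 13544 genes tested in PC3 and 20.1% of the 13676 tested in DU145 also had. The same 5 genes in each line had overexpression and control libraries that did not overlap, a share close to that of all genes tested (46.2% in PC3 and 48.3% in DU145). A gene was called when its absolute log2 fold change was also over 0.58, the threshold of the study. By that rule 1 of the 10 genes was called in PC3 (TGFB2, lower), against 5.38% of all genes tested, and 3 of the 10 were called in DU145 (TGFB2, SMAD7 and SKIL, all higher), against 8.94%. Over all genes, 489 were called higher and 239 lower in PC3, and 592 higher and 630 lower in DU145. The median log2 fold change over the 10 genes was -0.09 in PC3 and 0.18 in DU145, beside 0.00 over all genes tested in either line.

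**Figure D1:**
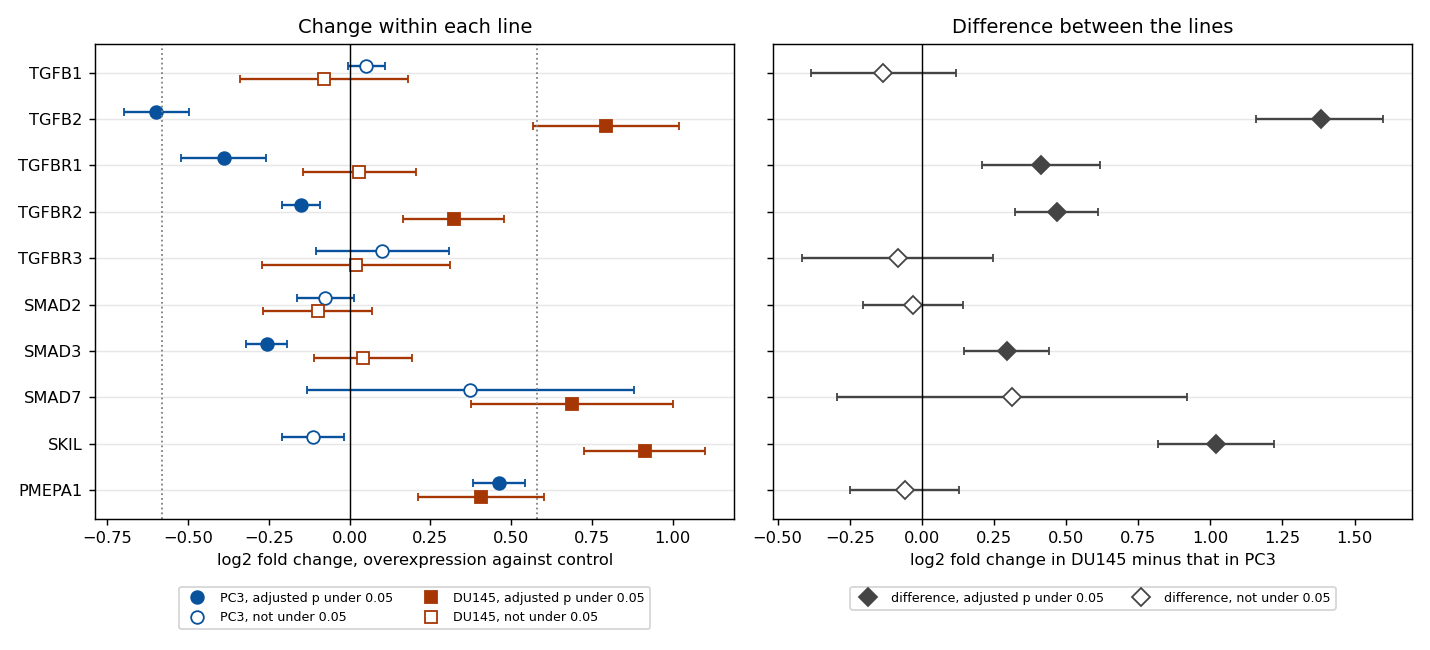
The left panel plots the log2 fold change of each of the 10 genes with ST6GAL1 overexpression in PC3 (circles) and DU145 (squares), and the right panel the change in DU145 minus that in PC3, with 95% confidence intervals from edgeR; filled symbols have an adjusted p under 0.05 and dotted lines mark 0.58. TGFB2 lies at -0.60 in PC3 and 0.79 in DU145, while PMEPA1 lies to the right of 0 in both lines.

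The 3 genes called in DU145 are shown here by the sequence around their start, since they rose together in one line and SKIL differed from TGFB2 and SMAD7 in base composition. Each line gives RefSeq sequence (GRCh38.p14) from 250 bases before the start of the transcript to 50 bases after it, read 5′ to 3′ on the strand of the gene. TGFB2 is at chr1:218345086-218345385 (plus strand), SKIL at chr3:170357465-170357764 (plus strand) and, for the outermost of its 3 listed starts, SMAD7 at chr18:48950916-48951215 (minus strand). Capitals mark matches on either strand to the SMAD core element (CAGAC), the E-box (CACGTG), the TATA box (TATAAA) and the GC box (GGGCGG).
TGFB2: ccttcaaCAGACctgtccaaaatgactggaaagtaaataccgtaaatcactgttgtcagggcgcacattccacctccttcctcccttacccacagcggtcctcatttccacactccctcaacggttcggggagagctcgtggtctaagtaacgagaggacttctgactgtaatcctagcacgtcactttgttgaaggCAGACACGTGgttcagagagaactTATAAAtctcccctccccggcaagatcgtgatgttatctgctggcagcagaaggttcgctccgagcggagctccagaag
SKIL: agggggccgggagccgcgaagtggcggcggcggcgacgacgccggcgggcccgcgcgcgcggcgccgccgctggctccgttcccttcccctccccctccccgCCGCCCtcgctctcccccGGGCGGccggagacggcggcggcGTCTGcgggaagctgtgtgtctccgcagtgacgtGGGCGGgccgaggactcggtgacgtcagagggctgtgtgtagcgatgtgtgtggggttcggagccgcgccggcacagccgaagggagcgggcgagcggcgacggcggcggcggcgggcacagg
SMAD7: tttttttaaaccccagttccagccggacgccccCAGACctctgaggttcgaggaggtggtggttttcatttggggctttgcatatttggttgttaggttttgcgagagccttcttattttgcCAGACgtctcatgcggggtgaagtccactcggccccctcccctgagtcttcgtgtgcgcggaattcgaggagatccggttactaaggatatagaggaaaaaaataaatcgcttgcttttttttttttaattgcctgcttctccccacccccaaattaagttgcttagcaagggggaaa

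The TGFB2 window holds the SMAD core element 243 and 53 bases before the start, the latter sharing a base with an E-box 49 bases before it, and a TATA box 29 bases before it. The SKIL window holds 1 core element, on the opposite strand 107 bases before the start, and 3 GC boxes. The SMAD7 window shown holds the core element 217 and 128 bases before the start and no GC box. The middle of its listed windows, not shown, holds 1 core element, a TATA box 35 bases before its start and no GC box (57.0% GC). The innermost holds no match (49.3% GC). GC content of the windows shown was 51.7% for TGFB2, 79.0% for SKIL and 48.3% for SMAD7, beside a median of 58.7% over all 35116 listed windows. The core element is common, with a match in 45.3% of all windows, and was in 14 of the 28 windows of the 10 genes. The GC box was in 45.0% of all windows and 13 of the 28, the TATA box in 11.5% and 2 of the 28, and the E-box in 7.26% and 2 of the 28. The AP-1 site (TGANTCA) was in 7.71% of all windows and in 2 of the 28. The palindromic SMAD element (GTCTAGAC), in 0.202% of all windows, was in none of the 28. Such matches are letters in the sequence and carry no measurement of binding.

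TGFB1 (chromosome 19, 41330323 to 41353922, GRCh38) encodes the ligand that is most widely produced in epithelia. In PC3 it was at 216, 216 and 224 CPM in the control libraries and at 227, 230 and 223 CPM with overexpression. The DU145 control libraries had 72.7, 75.2 and 79.5 CPM and the overexpression libraries 61.1 and 82.1 CPM. The groups overlapped in both lines, and in DU145 the 2 overexpression libraries lay on either side of all 3 control libraries. The log2 fold change was 0.05 in PC3 (95% interval -0.00635 to 0.111, adjusted p = 0.16 from edgeR) and -0.08 in DU145 (interval -0.339 to 0.182, adjusted p = 0.685 from edgeR).

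TGFB2 (chromosome 1, 218345336 to 218444619) encodes a ligand that needs TGFBR3 for efficient binding to TGFBR2. In PC3 it was at 62.6, 59.6 and 56.2 CPM in the control libraries and at 40.5, 38.9 and 38.8 CPM with overexpression. In DU145 it was at 21.9, 22.4 and 25.2 CPM in the control libraries and at 42.4 and 37.8 CPM with overexpression. Every overexpression library was below every control library in PC3 and above every control library in DU145, and the overexpression libraries of both lines ended at similar levels. TGFB2 was 1.51-fold lower in PC3 (log2 fold change -0.60, standard error 0.0494, adjusted p = 3.67e-13 from edgeR) and 1.73-fold higher in DU145 (log2 fold change 0.79, standard error 0.105, adjusted p = 1.12e-04 from edgeR). The fall in PC3 lay just past the threshold of 0.58, and without PC3 control replicate 1 it was -0.56 and no longer called. The overlapping TGFB2-AS1, which reads of TGFB2 cannot be separated from if strand was not used in counting, had 92 counts in all libraries together against 7188 for TGFB2.

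The ratio of TGFB1 to TGFB2, each per kilobase of exon, moved in opposite directions. In PC3 it was 6.83 ± 0.502 in control (SD, n = 3) and 10.7 ± 0.278 in overexpression libraries (SD, n = 3). In DU145 it was 6.07 ± 0.198 in control (SD, n = 3) and 3.35 ± 0.957 in overexpression libraries (SD, n = 2). The ranges did not overlap in either line, and the ratio itself was not tested.

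**Figure D2:**
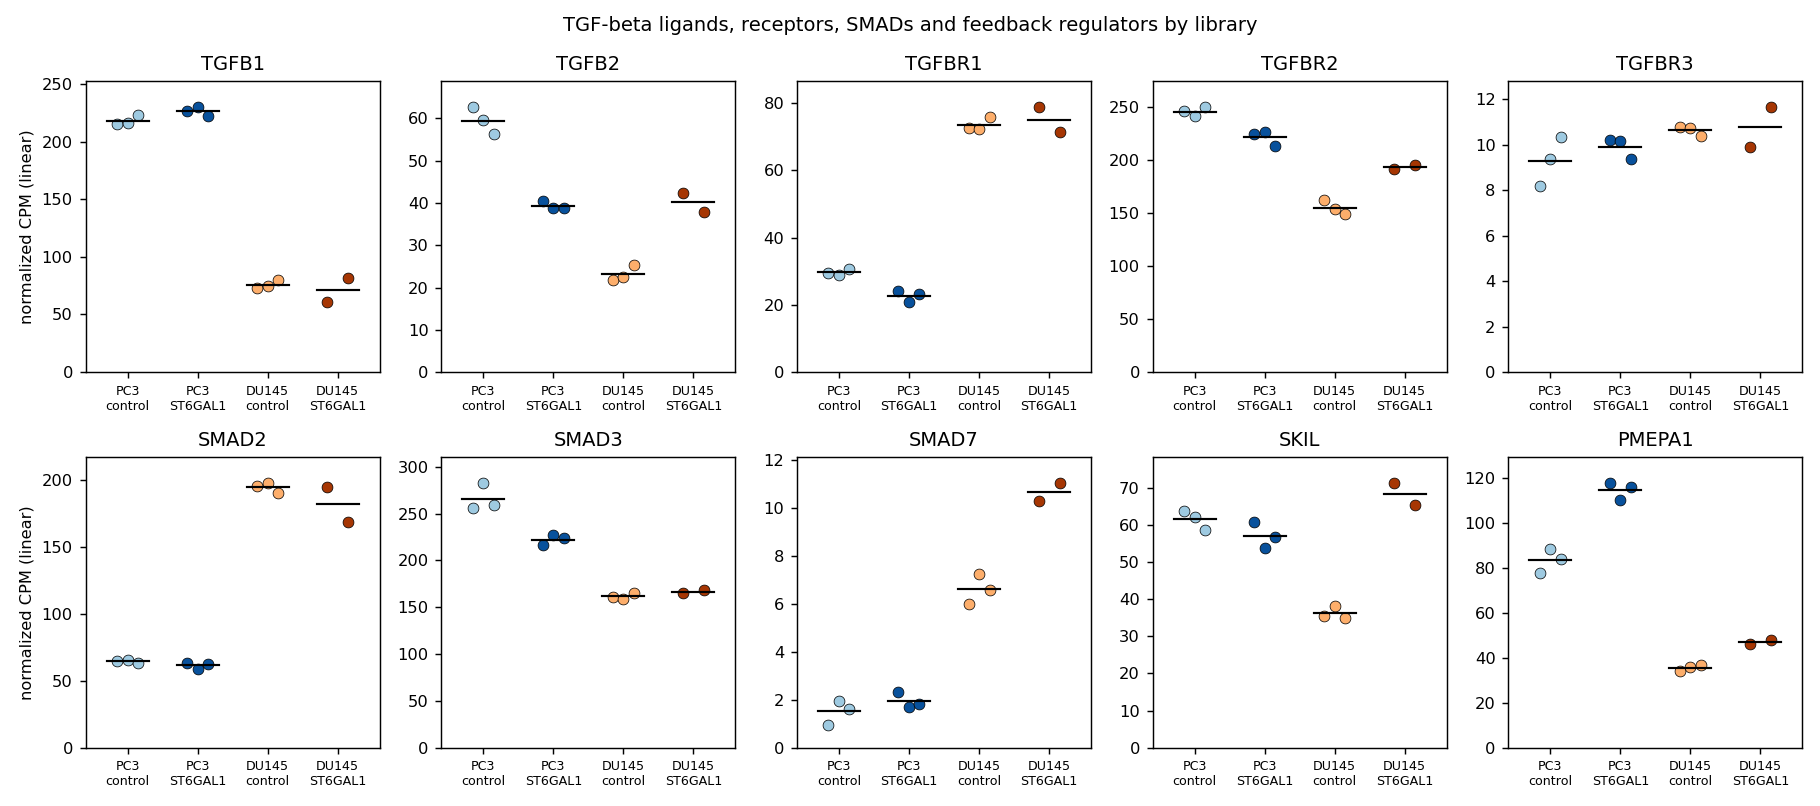
Each panel plots 1 gene, with normalized CPM on a linear axis from 0 and 1 point per library in the 4 groups; the horizontal bar is the group mean. TGFB2 is the gene whose overexpression libraries lie below the control libraries in PC3 (38.8 to 40.5 against 56.2 to 62.6) and well above them in DU145 (37.8 and 42.4 against 21.9 to 25.2).

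TGFBR1 (chromosome 9, 99103647 to 99154192), the type I receptor kinase, was at 29.4, 28.9 and 30.8 CPM in the PC3 control libraries and at 24.1, 20.8 and 23.3 CPM with overexpression. The DU145 values were 72.5, 72.4 and 75.9 CPM in the control libraries and 78.7 and 71.6 CPM with overexpression. The groups were apart in PC3 and overlapped in DU145. The log2 fold change was -0.39 in PC3 (standard error 0.0651, adjusted p = 5.81e-06 from edgeR) and 0.03 in DU145 (interval -0.144 to 0.204, adjusted p = 0.834 from edgeR).

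TGFBR2 (chromosome 3, 30606356 to 30694142), the type II receptor that binds ligand first, was at 246, 242 and 250 CPM in the PC3 control libraries and at 225, 226 and 214 CPM with overexpression. It was at 163, 154 and 149 CPM in the DU145 control libraries and at 192 and 196 CPM with overexpression. As for TGFB2, all overexpression libraries were below the control libraries in PC3 and above them in DU145, by smaller steps. The log2 fold change was -0.15 in PC3 (standard error 0.0294, adjusted p = 6.64e-05 from edgeR) and 0.32 in DU145 (standard error 0.073, adjusted p = 0.00644 from edgeR). The rise in DU145 had an adjusted p of 0.0603 from edgeR without DU145 control replicate 2.

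TGFBR3 (chromosome 1, 91680343 to 91906002), or betaglycan, is a co-receptor that presents ligand to TGFBR2. It was low throughout, at 8.18, 9.39 and 10.3 CPM in the PC3 control libraries and 10.2, 10.2 and 9.36 CPM with overexpression. Levels in DU145 were 10.8, 10.7 and 10.4 CPM in the control libraries and 9.90 and 11.6 CPM with overexpression. The groups overlapped in both lines, and the log2 fold change was 0.10 in PC3 (interval -0.105 to 0.307, adjusted p = 0.471 from edgeR) and 0.02 in DU145 (interval -0.27 to 0.31, adjusted p = 0.934 from edgeR).

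SMAD2 (chromosome 18, 47808957 to 47930872) and SMAD3 (chromosome 15, 67065602 to 67195169) are the SMADs that the activated receptor phosphorylates. SMAD2 was at 65.0, 65.5 and 63.3 CPM in the PC3 control libraries and 63.3, 58.5 and 62.6 CPM with overexpression, and at 196, 198 and 190 CPM and 195 and 168 CPM in the corresponding DU145 libraries. The groups overlapped in both lines. Its log2 fold change was -0.07 in PC3 (interval -0.163 to 0.0132, adjusted p = 0.183 from edgeR) and -0.10 in DU145 (interval -0.269 to 0.0708, adjusted p = 0.42 from edgeR). SMAD3 was at 256, 282 and 259 CPM in the PC3 control libraries and at 216, 227 and 224 CPM with overexpression. Its level in DU145 was 161, 159 and 165 CPM in the control libraries and 165 and 168 CPM with overexpression. SMAD3 was thus lower in all 3 overexpression libraries of PC3, with groups that overlapped in DU145. Its log2 fold change was -0.26 in PC3 (standard error 0.0319, adjusted p = 1.64e-08 from edgeR) and 0.04 in DU145 (interval -0.11 to 0.193, adjusted p = 0.727 from edgeR).

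SMAD7 (chromosome 18, 48919853 to 48950965), an inhibitory SMAD that blocks the type I receptor and is itself a target of the pathway, had few counts. In PC3 it had 17, 31 and 25 counts in the control libraries (0.952, 1.97 and 1.63 CPM) and 34, 31 and 29 counts with overexpression (2.32, 1.71 and 1.83 CPM). In DU145 it had 91, 115 and 88 counts in the control libraries (5.99, 7.26 and 6.56 CPM) and 159 and 198 counts with overexpression (10.3 and 11.03 CPM). The groups overlapped in PC3 and were apart in DU145. In DU145 SMAD7 was 1.61-fold higher (log2 fold change 0.69, standard error 0.146, adjusted p = 0.00415 from edgeR). In PC3 the log2 fold change was 0.37, with an interval of -0.133 to 0.879 (adjusted p = 0.256 from edgeR), so that a change of the size seen in DU145 lay within the interval.

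SKIL (chromosome 3, 170357715 to 170396849) encodes SnoN, a repressor that binds SMAD complexes at target genes and is induced by the pathway in turn. In PC3 it was at 63.7, 62.2 and 58.7 CPM in the control libraries and at 60.8, 53.9 and 56.6 CPM with overexpression. In DU145 it was at 35.5, 38.1 and 34.8 CPM in the control libraries and at 71.2 and 65.2 CPM with overexpression. The PC3 groups overlapped. The DU145 overexpression libraries lay above the PC3 control libraries, but these CPM were normalized within each line. Normalized over all libraries, they were at 8.74 and 8.05 CPM per kilobase of exon, against 7.21 to 7.85 in PC3 control. Line and batch cannot be told apart in that comparison. SKIL was 1.88-fold higher in DU145, the largest change among the 10 genes in either line (log2 fold change 0.91, standard error 0.0888, adjusted p = 7.15e-06 from edgeR), and its log2 fold change in PC3 was -0.11 (interval -0.209 to -0.0185, adjusted p = 0.0536 from edgeR).

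PMEPA1 (chromosome 20, 57648396 to 57711472) encodes a membrane protein that holds SMAD2 and SMAD3 away from the receptor, and is induced both by TGF-beta and by androgen. In PC3 it was at 77.7, 88.4 and 83.8 CPM in the control libraries and at 118, 110 and 116 CPM with overexpression. In DU145 it was at 33.9, 35.8 and 36.9 CPM in the control libraries and at 46.1 and 48.1 CPM with overexpression. It was the 1 gene of the 10 whose overexpression libraries were above the control libraries in both lines. PMEPA1 was 1.38-fold higher in PC3 (log2 fold change 0.46, standard error 0.0402, adjusted p = 1.53e-12 from edgeR) and 1.33-fold higher in DU145 (log2 fold change 0.41, standard error 0.0902, adjusted p = 0.0056 from edgeR). In neither line did it reach the threshold of 0.58, and without DU145 control replicate 1 its adjusted p in DU145 was 0.0652 from edgeR.

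Whether the lines differed in their response was tested on all 11 libraries together, by subtracting the change in PC3 from the change in DU145, on the log2 scale. The joint fit had a common biological coefficient of variation (spread between replicates beyond counting noise) of 0.0543, against 0.0817 in DU145 and 0.0226 in PC3 alone. Its standard errors can therefore understate the spread in DU145. For TGFB2 the standard error of the difference was no larger than that in DU145 alone (0.105 for both). Of the 10 genes 5 differed, all with a more positive change in DU145, where 19.7% of the 14952 genes tested differed in either direction (adjusted p under 0.05, edgeR). Over all genes, 1549 had the more positive change in DU145 and 1400 in PC3. The difference was 1.38 for TGFB2 (standard error 0.105, adjusted p = 1.76e-08 from edgeR) and 1.02 for SKIL (standard error 0.0951, adjusted p = 2.43e-07 from edgeR). It was smaller for both signalling receptors, 0.41 for TGFBR1 (adjusted p = 0.00529 from edgeR) and 0.47 for TGFBR2 (adjusted p = 6.4e-05 from edgeR), and for SMAD3, at 0.29 (adjusted p = 0.00566 from edgeR). For PMEPA1 the difference was -0.06 with an interval of -0.249 to 0.128 (adjusted p = 0.705 from edgeR), and for SMAD7 it was 0.31 with an interval of -0.296 to 0.918 (adjusted p = 0.5 from edgeR). A change of SMAD7 called in DU145 and not in PC3 is therefore not shown to differ between the lines. Differences for TGFB1 (-0.13), TGFBR3 (-0.08) and SMAD2 (-0.03) did not pass. ST6GAL1 itself rose more in DU145, by 1.06 on the log2 scale (adjusted p = 2.86e-04 from edgeR), so that the lines differed in the strength of overexpression as well as in their origin.

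The lines also differed in these genes without ST6GAL1 overexpression. Between the control groups 9 of the 10 genes were called, 3 higher and 6 lower in DU145, where 64.9% of all genes tested were called and 86.3% had an adjusted p under 0.05. DU145 control cells had less of both ligands (TGFB1 2.87-fold and TGFB2 2.56-fold lower) and of TGFBR2 (1.58-fold), SMAD3 (1.63-fold), SKIL (1.69-fold) and PMEPA1 (2.33-fold lower). They had more TGFBR1 (2.49-fold), SMAD2 (3.03-fold) and SMAD7 (4.43-fold higher). The adjusted p of these 9 genes was at most 3.22e-09 from edgeR. TGFBR3 was close in both lines, with a log2 difference of 0.21 (interval -0.0165 to 0.433, adjusted p = 0.0769 from edgeR) and control libraries that did not overlap. The PC3 libraries were deposited later than the DU145 libraries, and line and batch cannot be told apart in this comparison.

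Per kilobase of exon, TGFB1, TGFBR2 and SMAD3 led the order in both lines. In PC3 control cells TGFB1 was at 66.8 ± 1.34 RPKM (CPM per kilobase of exon, SD, n = 3), followed by TGFBR2 at 35.9 ± 0.596, SMAD3 at 26.5 ± 1.42, PMEPA1 at 14.5 ± 0.913, TGFB2 at 9.81 ± 0.54, SKIL at 7.57 ± 0.323, TGFBR1 at 3.71 ± 0.12, TGFBR3 at 1.08 ± 0.124 and SMAD7 at 0.384 ± 0.13 RPKM. No neighbours in this order overlapped. In DU145 control cells TGFB1 (23.3 ± 1.06 RPKM) and TGFBR2 (22.7 ± 1.04 RPKM) overlapped at the top, followed without overlap by SMAD3 (16.2 ± 0.303), TGFBR1 (9.24 ± 0.242), PMEPA1 (6.22 ± 0.259), SKIL (4.47 ± 0.221), TGFB2 (3.84 ± 0.295), SMAD7 (1.68 ± 0.163) and TGFBR3 (1.24 ± 0.0281 RPKM). Of the receptors, TGFBR2 exceeded TGFBR1 by 9.67 ± 0.171 times in PC3 control (SD, n = 3) and 2.46 ± 0.166 times in DU145 control cells (SD, n = 3). With the length of the canonical transcript in place of all annotated exons, a choice made after the values were seen, TGFBR2 (34.4 RPKM) exceeded TGFB1 (27.4 RPKM) in DU145 without overlap. SMAD2, at 1.77 ± 0.0322 RPKM in PC3 and 5.36 ± 0.108 RPKM in DU145 control cells, was kept out of the order because its annotated exons add up to 36426 bases, against 3264 to 10011 bases for the other 9 genes.

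**Figure D3:**
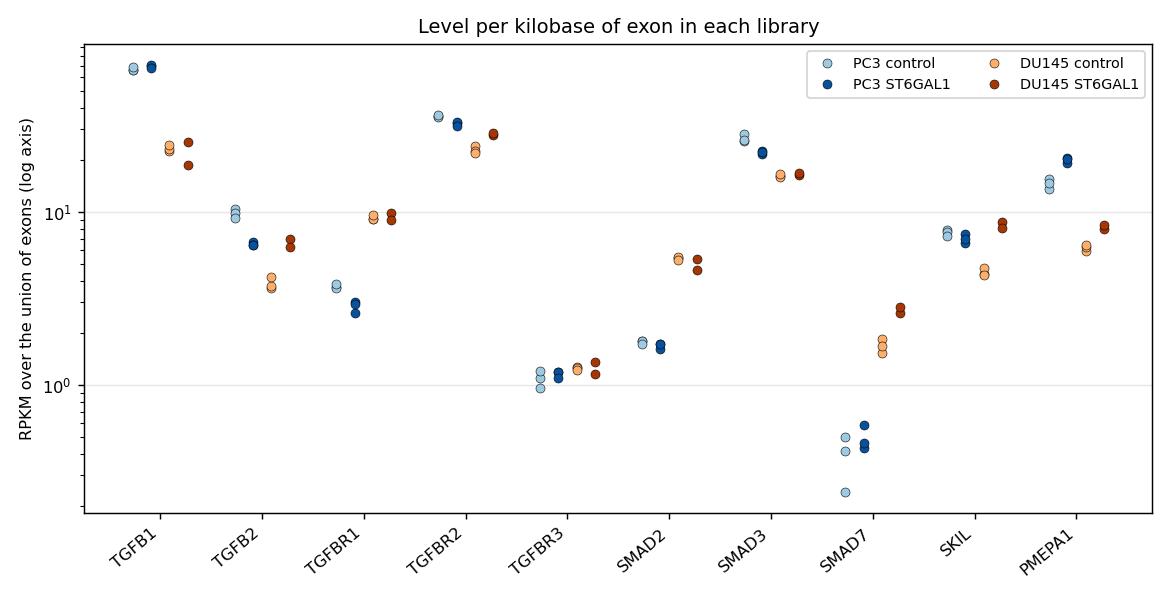
RPKM over the union of annotated exons is plotted on a log axis for each of the 10 genes, with 1 point per library in the 4 groups. TGFB1, TGFBR2 and SMAD3 lead in both lines, TGFBR1 and SMAD7 lie higher in DU145 than in PC3, and the low level of SMAD2 goes with its annotated length of 36426 bases.

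The pathway beyond these genes was followed through a list of 79 genes. In PC3 68 of the 79 were tested, of which 17 were higher and 18 lower at an adjusted p under 0.05 (51.5%), and 9 were called (13.2%, 4 higher and 5 lower), with a median log2 fold change of 0.02. In DU145 64 were tested, of which 18 were higher and 3 lower (32.8%), and 13 were called (20.3%, 11 higher and 2 lower), with a median of 0.16. The background shares are those given above, 5.38% called in PC3 (489 genes higher and 239 lower) and 8.94% in DU145 (592 higher and 630 lower). The list was written with earlier results of these data known. A list share above the background, here or below, is therefore a description, and enrichment was not tested.

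Among genes for latency and release of the ligands, different ones were called in each line. In PC3 ITGB6, the beta subunit of an integrin that releases latent TGF-beta, went from 16, 13 and 13 counts to 119, 173 and 121 counts (log2 fold change 3.29, standard error 0.184, adjusted p = 1.82e-18 from edgeR), while in DU145 it had 2 counts in 1 control library and 0 in the other libraries. In DU145 ITGB8, the beta subunit of another such integrin, went from 8, 6 and 5 counts to 62 and 67 counts (log2 fold change 3.15, standard error 0.292, adjusted p = 4.69e-06 from edgeR). ITGB8 also rose in PC3, where it was more abundant, from 29.8, 31.1 and 34.1 CPM to 42.0, 43.5 and 39.98 CPM (log2 fold change 0.41, adjusted p = 1.99e-07 from edgeR), against 4.01 and 3.73 CPM in the DU145 overexpression libraries. LTBP1, which anchors the latent ligand in the matrix, and THBS1, which can release it, rose in DU145 by 1.31 and 1.32 on the log2 scale (adjusted p = 6.1e-07 and 1.55e-07 from edgeR). In PC3 LTBP1 rose slightly and THBS1 fell, with log2 fold changes of 0.11 and -0.27 (adjusted p = 7.99e-04 and 0.00117 from edgeR). In DU145, 5 of the 8 genes tested in this group were higher and none lower, 4 of them called, against 20.1% and 8.94% of all genes tested. LTBP2, named after its values were seen, was the remaining called gene. In PC3, 5 of 9 were higher and 1 lower, with ITGB6 the 1 called, against 37.3% and 5.38% of all genes tested.

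Other ligands that signal through SMAD2 and SMAD3 were tested mainly in PC3. Of the 4 tested there, 3 were lower and 1 higher at an adjusted p under 0.05, which 37.3% of all genes had. Of these 2 were called, against 5.38% of all genes. TGFB3 was lower (log2 fold change -0.31, adjusted p = 0.00142 from edgeR) and GDF11 higher (0.23, adjusted p = 0.00134 from edgeR). Neither passed in DU145 (adjusted p = 0.409 and 0.735 from edgeR), and they are named after their values were seen. INHBA and INHBB, the subunits of activins, were lower in PC3 with overexpression, INHBB from 137, 128 and 135 CPM to 75.5, 69.4 and 69.2 CPM (log2 fold change -0.90, standard error 0.0386, adjusted p = 1.92e-22 from edgeR) and INHBA by a smaller step (log2 fold change -0.67, adjusted p = 1.29e-18 from edgeR). Both had 0 counts in all 5 DU145 libraries, where 3 counts were taken as the floor. FST, which encodes the activin-binding protein follistatin, was at 724 to 750 CPM in PC3 control libraries and had 6, 4 and 2 counts in the DU145 control libraries. FSTL1, a related secreted glycoprotein, was 95.5-fold lower in DU145 control cells (adjusted p = 6.76e-24 from edgeR). SMAD9, a SMAD of the bone morphogenetic protein branch, was called higher in PC3 (log2 fold change 1.08, adjusted p = 1.69e-06 from edgeR). It also rose in DU145, without being called (log2 fold change 0.44, adjusted p = 0.0135 from edgeR). Mean SMAD9 went from 2.53 to 5.37 CPM in PC3 and from 18.2 to 24.6 CPM in DU145. Of the cofactors and regulators of SMADs, 6 of 17 tested in PC3 and 4 of 16 tested in DU145 had an adjusted p under 0.05 (35.3% and 25% against 37.3% and 20.1% of all genes), and none was called, where 5.38% and 8.94% of all genes were.

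Of the target genes, TGFBI and ANGPTL4 were called in opposite directions in the lines. TGFBI, a matrix protein named for its induction by TGF-beta, was at 93.9, 97.9 and 91.0 CPM in DU145 control libraries and at 318 and 305 CPM with overexpression (log2 fold change 1.72, standard error 0.0721, adjusted p = 2.49e-09 from edgeR). In PC3 it was barely read, with 36, 37 and 30 counts in control and 5, 13 and 12 counts in overexpression libraries (log2 fold change -1.76, standard error 0.287, adjusted p = 3.89e-06 from edgeR). COL4A1, a basement membrane collagen, went from 15.9, 13.8 and 13.9 CPM to 54.2 and 56.1 CPM in DU145 (log2 fold change 1.92, adjusted p = 2.77e-08 from edgeR), and KLF10, an early response gene of the pathway, rose there by 0.90 (adjusted p = 1.58e-05 from edgeR). KLF10 fell in PC3 (log2 fold change -0.18, adjusted p = 4.5e-05 from edgeR). COL4A1 did not pass there (log2 fold change 0.06, adjusted p = 0.192 from edgeR). SNAI2, CDKN1A and TSC22D1, and the co-receptor gene ENG, were also called higher in DU145 and are named after their values were seen. SNAI2 and CDKN1A were lower in PC3, with log2 fold changes of -0.41 and -0.34 (adjusted p = 0.00235 and 6.1e-04 from edgeR). TSC22D1 (-0.04) and ENG (0.05) did not pass there. FN1, which encodes fibronectin, rose in PC3 from 421, 442 and 433 CPM to 812, 854 and 826 CPM (log2 fold change 0.94, standard error 0.0256, adjusted p = 2.57e-29 from edgeR). It also rose in DU145, from 22.5, 19.4 and 22.2 CPM to 30.3 and 31.6 CPM (log2 fold change 0.54, adjusted p = 0.00281 from edgeR). TGM2, a transglutaminase, and PTHLH, a hormone that drives bone resorption, fell in PC3, with log2 fold changes of -1.06 and -0.81 (adjusted p = 3.24e-30 and 4.36e-19 from edgeR). TGM2 rose in DU145, without being called (log2 fold change 0.38, adjusted p = 0.00552 from edgeR). PTHLH did not pass there (log2 fold change 0.52, adjusted p = 0.359 from edgeR). ANGPTL4, a secreted inhibitor of lipoprotein lipase, rose in PC3 and fell in DU145, with log2 fold changes of 1.37 and -2.88 (adjusted p = 2.97e-11 and 9.51e-06 from edgeR). In DU145 it had 199 counts over the 3 control libraries and only 20 over the 2 overexpression libraries (0.45 and 0.78 CPM).

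Counted at an adjusted p under 0.05, 3 target genes were higher and 10 lower of 23 tested in PC3 (56.5%, against 37.3% of all genes), and 8 were higher and 2 lower of 23 tested in DU145 (43.5%, against 20.1%). The second lower gene in DU145 was IL11, at a log2 fold change of -0.61 (adjusted p = 0.0291 from edgeR), a call that DESeq2 did not make (adjusted p = 0.119).

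**Figure D4:**
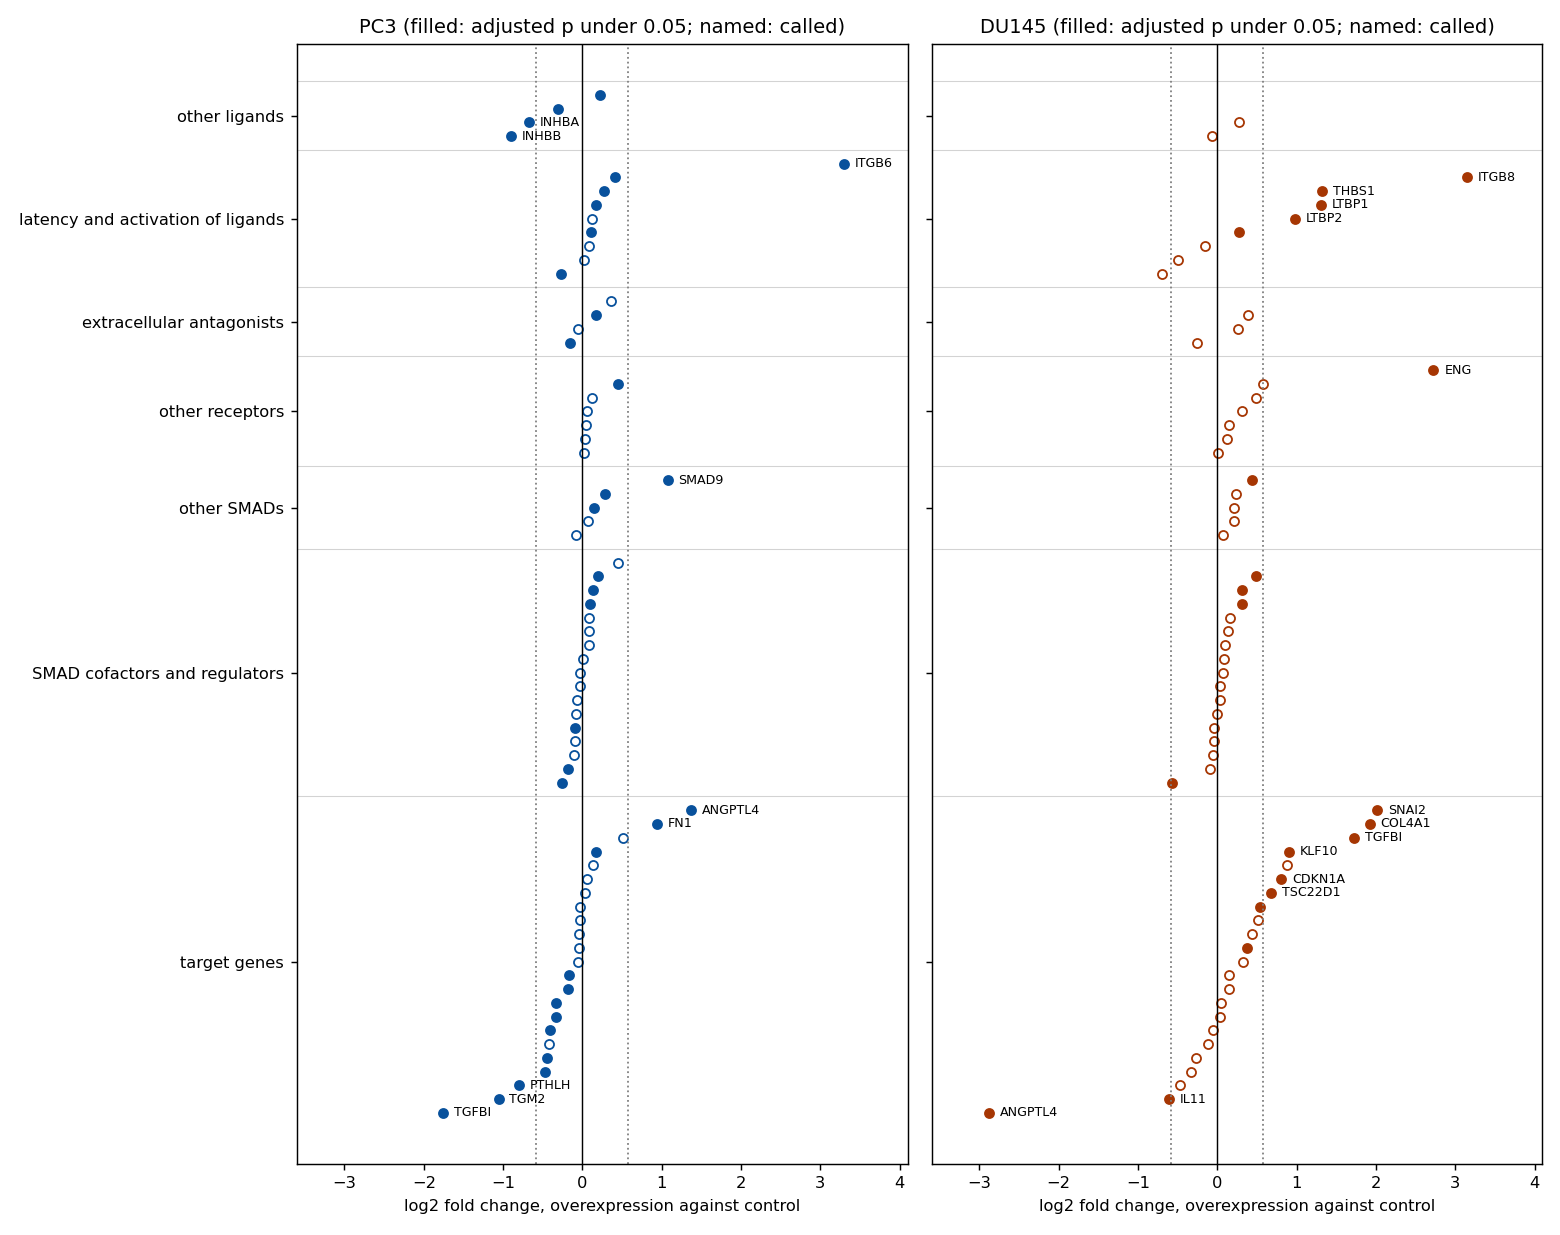
Each point is 1 gene of the list of other pathway genes, placed by its log2 fold change with ST6GAL1 overexpression in PC3 (left) and DU145 (right) and grouped by role; filled points have an adjusted p under 0.05, dotted lines mark 0.58 and called genes are named. In DU145 11 of the 13 called genes lie to the right, and in PC3 4 of 9 do.

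Tested as a difference between the lines, 31 of 70 genes of the list passed (44.3%, against 19.7% of all genes), 24 with the more positive change in DU145 and 7 in PC3. The 4 with the smallest adjusted p were COL4A1 (1.86), TGM2 (1.43), THBS1 (1.58) and LTBP1 (1.19 on the log2 scale), with adjusted p at most 1.72e-09 from edgeR. The median difference was 0.15 and did not move when 5 genes with 0 counts in a whole group were left out, beside -0.01 over all genes. Between the control groups 52 of 70 were called, 16 higher and 36 lower in DU145 (74.3%, against 64.9% of all genes). Of those, TGFBI was 44.9-fold higher, ZFYVE16, an endosomal SMAD-binding protein, 2.80-fold higher and TGM2 2.54-fold higher in DU145, and LTBP1 was 17.6-fold lower. The median between the control groups was -0.73, and -0.48 without 3 genes that had 0 counts in all DU145 control libraries.

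The genes next to each of the 10 on its chromosome had small median changes, and some sets leaned higher or lower. Over the 50 nearest tested genes the median log2 fold change lay between -0.09 and 0.01 in PC3 and between -0.12 and 0.18 in DU145. Around TGFB2 it was -0.01 and -0.02 in PC3 and DU145, and around SKIL -0.06 and 0.01. Around SMAD7 in DU145 it was 0.14, with 34 of 50 neighbours higher, beside 0.69 for SMAD7 itself. Around TGFBR2 in DU145 it was 0.10, with 34 of 50 higher, beside 0.32 for TGFBR2. In PC3 it was -0.09 around TGFBR1 and -0.06 around SMAD3 (33 and 34 of 50 lower), beside -0.39 and -0.26 for these genes. It was 0.01 around TGFBR2 in PC3 and -0.01 around PMEPA1 in either line. Around SMAD2 in DU145 it was 0.18, with 36 of 50 higher, beside -0.10 for SMAD2.

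Across all 11 libraries, the gene whose log2 CPM ran most like that of TGFB2 was ETS1 (Pearson r = 0.9943), and that most like SKIL was YLPM1 (r = 0.9844), out of 14952 genes. For TGFBR1 it was LINC00707 (r = 0.9979), for TGFBR2 EIF2B2 (r = 0.9878) and for PMEPA1 TNFRSF21 (r = 0.9962). For SMAD7 it was LOC100289495 (r = 0.9897), for TGFB1 CPSF1 (r = 0.9994), for SMAD2 SMC2 (r = 0.999) and for SMAD3 TINAGL1 (r = 0.9943). TGFBR3, which varied least between the lines, had the lowest best match (C1orf56, r = 0.9007). These are descriptions over 11 libraries in 4 groups, in which most of the spread is the difference between the lines. In bulk RNA, a larger share of cells with a transcript and more of it per cell cannot be told apart.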

How the data were processed

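RNA-Seq was performed on PC3 and DU145 cells with a control lentivirus or ST6GAL1 overexpression, using a stranded mRNA kit. In Galaxy, the authors used Cutadapt for trimming, HISAT2 for alignment of the single reads to hg38 and featureCounts for counting. The deposited values are raw counts for 28395 genes by Entrez identifier, of which 97.7% matched RefSeq. Annotation, tool versions and use of strand in counting were not given in the sources used here.

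Each line was fitted with edgeR 4.0.16 in R 4.3.3 (filterByExpr, TMM, robust quasi-likelihood test, Benjamini-Hochberg adjustment over all genes tested), and both lines together for differences between them and between control groups. A gene was called when its log2 fold change exceeded 0.58 in size at an adjusted p below 0.05, and for differences between lines on the adjusted p alone. Limma 3.58.1 (voom, as in the study), DESeq2 1.42.0, RLE factors, no filter, a replicate block and leaving out each library were alternatives. The scripts were tested on simulated data. RPKM used GENCODE 44 exons and promoters RefSeq. The CPM of single libraries were normalized within each line, and RPKM over all libraries together. The labels name biological repeats without saying what was repeated, so p-values measure the spread between these libraries. No replicate libraries agreed within sampling noise. The 10 genes and the list of 79 were chosen with earlier results of these data known. Named list genes are the called ones with the smallest adjusted p (6 per direction in a line, 4 for the difference, 3 per direction between controls). LTBP2, ENG, SNAI2, CDKN1A, TSC22D1, TGFB3 and GDF11 were added after their values were seen. Best matches are by Pearson r of log2 CPM (prior count 2). Some genes are not reported here.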

Additional observations from a re-analysis of the deposited data

Results flagged for a closer look

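Among the 10 genes, ST6GAL1 and the genes of the list that were called in either line or named by the rule, 34 in all, 25 had a change with ST6GAL1 overexpression that differed between DU145 and PC3 (adjusted p under 0.05 for the difference in edgeR's quasi-likelihood test). Of all genes tested, 19.7% differed. The list genes here were chosen by their values in these data, 4 of them by the difference itself, so a higher share was built in. For the 10 genes and ST6GAL1, the difference (DU145 less PC3, log2 scale) was 1.38 for TGFB2, 1.02 for SKIL, 0.47 for TGFBR2, 0.41 for TGFBR1, 0.29 for SMAD3 and 1.06 for ST6GAL1. Of the list, more positive differences were 3.48 for TGFBI, 2.74 for ITGB8, 2.68 for ENG, 2.41 for SNAI2, 1.86 for COL4A1, 1.58 for THBS1, 1.43 for TGM2, 1.32 for PTHLH, 1.19 for LTBP1, 1.14 for CDKN1A, 1.08 for KLF10, 0.86 for LTBP2, 0.72 for TSC22D1 and 0.43 for FSTL1. More negative differences were -4.26 for ANGPTL4, -0.64 for SMAD9 and -0.41 for FN1. SMAD9 and FN1 each rose in both lines. Fitted differences of -6.05 for ITGB6 and -5.32 for FST rest on 0 counts in both DU145 overexpression libraries, so their size depends on the prior count. PTHLH had at most 24 counts in any DU145 library. In DU145 ENG had 14 counts over the 3 control libraries and 72 over the 2 overexpression libraries, which differed (1.29 and 2.90 CPM). For SNAI2 these totals were 30 and 92 counts, and for ANGPTL4 199 and 20 counts.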

How the results depend on the processing

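Under limma-voom, DESeq2, RLE factors and no filter, the number of the 10 genes called stayed at 1 in PC3, 3 in DU145, 5 for the difference between lines and 9 between controls. With the adjusted p alone it was 5 in PC3 and 5 in DU145. With each library left out it ranged from 0 to 1 in PC3 (0 without control replicate 1), was 3 in DU145 and 9 between controls, and ranged from 5 to 6 for the difference, where TGFB1 was also called (-0.38) without DU145 overexpression replicate 3. A fit with 1 DU145 overexpression library assumes that it varies like the other groups. Over all genes, leaving out a library gave 830 to 2072 calls in DU145 and 2287 to 5161 for the difference, the highest without DU145 overexpression replicate 3. Leaving out a library turned the sign of values that were not called. In DU145 these were TGFB1 (-0.31 to 0.11), TGFBR1 (-0.05 to 0.10), TGFBR3 (-0.10 to 0.12, and -0.01 without control replicate 3) and SMAD2 (-0.21 to 0.00). For the difference they were TGFB1 (-0.38 to 0.05), TGFBR3 (-0.22 to 0.02, and 0.01 without PC3 control replicate 1) and SMAD2 (-0.14 to 0.06). IL11 in DU145 lost its call under DESeq2 and in 4 of 5 fits with a library left out.

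With a replicate block, 740 genes were called in PC3, 1517 in DU145, 3551 for the difference and 9681 between controls, and the counts among the 10 genes were 1, 3, 5 and 9. Deviations of same-numbered libraries correlated at -0.00195, 0.0753 and 0.0608 in PC3 and at 0.0867 and 0.293 in DU145. In neither line did every library correlate best with its own number. In DU145, overexpression replicate 2 correlated best with control replicate 1 (0.239). With 2 DU145 overexpression libraries, their deviations from the group mean are mirror images, so the DU145 values say little about pairing.

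SMAD7 in PC3 rests on 17 to 34 counts per library, and its interval (-0.133 to 0.879) holds both 0 and the value in DU145 (0.69). The 2 DU145 overexpression libraries had a mean chi-square per gene of 13.3 between them, against 1.39 to 5.46 for replicate pairs of the other groups.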
